A study of Mus musculus with 28 samples.

Results

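The genes described here encode enzymes of cholesterol and fatty acid synthesis, with their regulators and a few proteins of lipid uptake and transport. They were chosen by name, with earlier results of these data known, and 34 mouse genes were listed. A probe set counted as a gene's own if the platform annotation gave it that symbol and no other. Where a gene had more than 1 such probe set (Idi1, Fdft1, Acaca and Me1), the probe set whose mean over the 28 arrays was highest stood for it. By that rule 33 of the 34 genes were measured, among 19938 genes in all, and Acat2 was not analysed here.

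The study measured total RNA on Affymetrix arrays, 28 in all, from 129SvEv mouse cells in 12 groups. The knockout experiment had Top2β knockout ES cells (2 arrays) and wild type ES cells (2), knockout and wild type neuronal progenitor (NP) cells (2 each), and knockout and wild type neurons at TN day 2 (2 each) and TN day 6 (3 each), TN being the labels' name for the neuron stage that follows NP in vitro. The drug experiment had neurons at TN day 5 given ICRF-193 (2) or DMSO (2), and cortical glutamatergic neurons isolated at E16.5 given ICRF-193 (3) or DMSO (3). Top2β, encoded by Top2b, is a DNA topoisomerase II that is also made in cells that no longer divide. ICRF-193 is a catalytic inhibitor of topoisomerase II. The labels give a dose of 50 μM, renewed every 24 h between TN day 2 and TN day 5. They state that schedule for cortical neurons too, and they give no genotype for the drug-treated cells and no number of clones or cultures. The p-values below therefore measure the spread between these arrays, which may be technical.

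Cholesterol is built from acetyl-CoA through mevalonate, farnesyl pyrophosphate, squalene and lanosterol, and fatty acids are built from the same acetyl-CoA through malonyl-CoA. Both pathways are switched on by SREBP transcription factors, encoded by Srebf1 and Srebf2, which INSIG proteins hold in the endoplasmic reticulum while sterol is plentiful. The brain makes its own cholesterol behind the blood-brain barrier: young neurons synthesise it, and astrocytes pass it on in particles that carry apolipoprotein E.

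Values are the deposited log2 intensities, so a difference of 1 means a factor of 2, and a level of 1 gene is not set against that of another. A gene was said to rise or fall when limma's moderated test, fitted to all 28 arrays, gave a Benjamini-Hochberg adjusted p under 0.05 over all 19938 genes. Top2b itself was lower in knockout cells at every stage, by 1.29 ± 0.24 (SE) in ES cells (adjusted p = 0.0177) and by 2.31 to 2.41 at the later stages. Array medians lay between 6.12 and 6.43. Arrays of 1 group correlated at 0.984 or more over all probe sets, except the 2 knockout ES arrays, at 0.974. Cortical cultures carried the cortical glutamatergic markers Neurod6 (10.61 with ICRF-193, 10.55 with DMSO) and Tbr1 (11.13 and 10.14). Neurons at TN day 5 were low in both, with Neurod6 at 3.78 with ICRF-193 and 4.10 with DMSO, and Tbr1 at 5.40 and 5.35.

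SREBPs act together with factors at neighbouring CCAAT boxes and GC boxes, so the 250 bases before the start of each gene were searched in RefSeq's promoter sequences (build GRCm38.p6). Sequences were found for 25 of the 33 genes, some with several starts, giving 33 windows. The letters CCAAT, on either strand, occurred in 20 of the 33 windows (60.6%), against 34.5% of 19177 windows of all measured genes. GGGCGG, the GC box, occurred in 21 windows (63.6%, against 45.5%), and TCACNCCAC, a form of the sterol regulatory element, in 1 (3.03%, against 1.01%). A match describes the letters and is not shown to be a bound site. The 4 windows with at least 3 CCAAT matches are given 5′ to 3′ on the gene's strand, with CCAAT or its reverse complement in capitals, and with the TCACNCCAC match of Hmgcs1, bases 114 to 122, also in capitals. They belong to the HMG-CoA synthase gene Hmgcs1 (chr13:119690101-119690350, plus strand), the mevalonate kinase gene Mvk (chr5:114444019-114444268, plus), the sterol reductase gene Hsd17b7 (chr1:169969206-169969455, minus) and the fatty acid synthase gene Fasn (chr11:120824548-120824797, minus). Mvk held 5 matches and the others 3 each, with 2 of those of Fasn overlapping in CCAATTGG.
Hmgcs1: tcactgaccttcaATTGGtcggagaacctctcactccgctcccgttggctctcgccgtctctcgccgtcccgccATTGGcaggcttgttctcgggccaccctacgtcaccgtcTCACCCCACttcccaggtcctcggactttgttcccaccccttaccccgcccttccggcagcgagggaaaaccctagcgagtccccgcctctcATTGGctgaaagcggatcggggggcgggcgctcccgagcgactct
Mvk: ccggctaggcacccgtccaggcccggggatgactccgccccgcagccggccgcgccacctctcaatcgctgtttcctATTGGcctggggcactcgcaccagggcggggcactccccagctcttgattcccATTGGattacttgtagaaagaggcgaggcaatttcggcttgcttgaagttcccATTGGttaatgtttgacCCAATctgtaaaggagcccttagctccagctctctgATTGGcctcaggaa
Hsd17b7: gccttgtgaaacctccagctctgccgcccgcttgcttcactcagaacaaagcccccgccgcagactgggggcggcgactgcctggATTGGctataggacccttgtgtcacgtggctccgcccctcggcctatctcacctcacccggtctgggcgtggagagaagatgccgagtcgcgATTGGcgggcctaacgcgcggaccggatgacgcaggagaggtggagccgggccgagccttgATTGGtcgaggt
Fasn: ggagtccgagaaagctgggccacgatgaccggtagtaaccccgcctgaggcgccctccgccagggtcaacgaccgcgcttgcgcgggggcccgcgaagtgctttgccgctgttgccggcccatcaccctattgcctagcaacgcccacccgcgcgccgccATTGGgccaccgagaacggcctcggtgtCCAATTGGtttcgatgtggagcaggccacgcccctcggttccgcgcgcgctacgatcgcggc

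**Figure D1:**
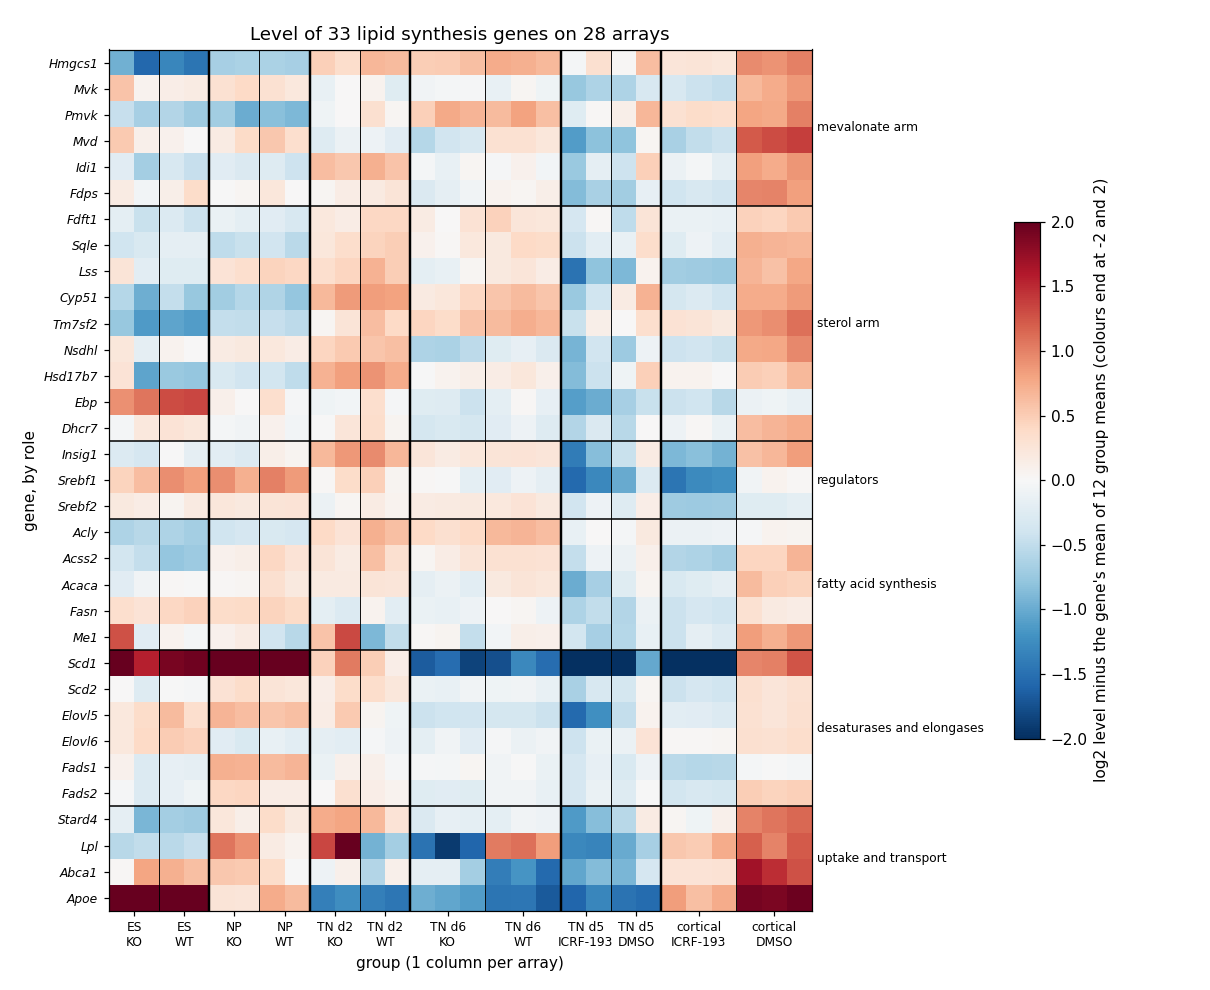
Level of each of the 33 measured genes on each of the 28 arrays, as the log2 level minus the gene's mean over the 12 group means (colour, ending at -2 and 2), with genes in rows by role and arrays in columns by group. Cortical neurons with DMSO had the highest mean of the 12 groups for 17 genes, and neurons at TN day 5 with ICRF-193 the lowest for 17.

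ICRF-193 lowered nearly the whole group of genes in cortical neurons. Of the 33 genes, 31 fell and none rose, where 13.7% of all genes tested fell and 9.72% rose. At an unadjusted p under 0.05 32 fell and 0 rose, and the share of all genes at that cut-off is not given here. The median difference was -0.82 for the 33 genes and 0.04 for all genes. In each of the 33 the 3 ICRF-193 arrays lay below the 3 DMSO arrays, which was so for 25.9% of all genes. Falls reached 1 log2 unit or more for 14 genes, and 28 of the 31 passed under every alternative fit, the exceptions being Ebp, Elovl6 and Lpl. The 2 genes that did not pass were the sterol reductase gene Hsd17b7 (-0.49 ± 0.20, adjusted p = 0.0813) and the ATP citrate lyase gene Acly (-0.15 ± 0.07, adjusted p = 0.141). In cell populations such as these, fewer cells of a type and less RNA per cell cannot be told apart.

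All 6 measured genes of the mevalonate arm fell in cortical neurons. Hmgcs1, which makes HMG-CoA, read 11.63, 11.65 and 11.61 with ICRF-193, against 12.34, 12.29 and 12.40 with DMSO. The groups were apart, with a difference of -0.71 ± 0.13 (SE, adjusted p = 0.000433). Mvk, which phosphorylates mevalonate, read 8.01, 7.90 and 7.85 with ICRF-193, against 8.98, 9.07 and 9.19 with DMSO. It fell by 1.16 ± 0.11 (adjusted p = 1.07e-07), again without overlap. Mvd, the decarboxylase that yields isopentenyl pyrophosphate, read 8.11, 8.27 and 8.33 with ICRF-193, against 9.98, 10.06 and 10.13 with DMSO. Its difference of -1.82 ± 0.15 (adjusted p = 9.56e-09), 3.54-fold lower, was the widest of this arm. Fdps, the farnesyl pyrophosphate synthase, read 9.50, 9.59 and 9.51 with ICRF-193 and 10.88, 10.90 and 10.72 with DMSO. Its fall was 1.30 ± 0.11 (adjusted p = 1.43e-08). The isomerase gene Idi1 (-0.93 ± 0.16) and the phosphomevalonate kinase gene Pmvk (-0.52 ± 0.13) completed the arm, and the second probe set of Idi1 gave -0.94.

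In the sterol arm, which turns farnesyl pyrophosphate into cholesterol, 8 of 9 genes fell. Lss, the lanosterol synthase that closes the ring system, read 8.66, 8.64 and 8.61 with ICRF-193, against 10.03, 9.94 and 10.13 with DMSO. That difference was -1.39 ± 0.18 (adjusted p = 4.66e-06). Nsdhl, which acts in removing methyl groups from sterol intermediates, read 9.43, 9.46 and 9.40 with ICRF-193, against 10.60, 10.62 and 10.80 with DMSO. Its level fell by 1.24 ± 0.13 (adjusted p = 5.09e-07). Cyp51, the lanosterol demethylase, fell by 1.12 ± 0.13, with arrays at 9.30, 9.39 and 9.25 with ICRF-193, against 10.40, 10.40 and 10.51 with DMSO. The remaining falls were smaller: 0.87 for the squalene epoxidase Sqle, 0.76 for Dhcr7, which completes cholesterol, 0.72 for the sterol reductase Tm7sf2, 0.61 for the squalene synthase Fdft1 and 0.35 for the sterol isomerase Ebp. The second probe set of Fdft1 gave -0.72.

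The 3 regulators fell as well. Insig1, itself a known SREBP target, read 9.12, 9.17 and 9.06 with ICRF-193, against 10.60, 10.68 and 10.86 with DMSO. The difference was -1.60 ± 0.13 (adjusted p = 9.72e-09), or 3.02-fold lower. Srebf1, which is best known for driving fatty acid genes, read 6.69, 6.87 and 6.92 with ICRF-193, against 8.07, 8.21 and 8.17 with DMSO, a fall of 1.33 ± 0.15 (adjusted p = 6.04e-07). Srebf2, whose product favours cholesterol genes, fell less, by 0.49 ± 0.09 (adjusted p = 0.000216), and its arrays lay between 9.99 and 10.01 with ICRF-193, against 10.47 and 10.52 with DMSO.

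Of the 5 genes of fatty acid synthesis 4 fell. Acss2, which makes acetyl-CoA from acetate, read 7.59, 7.56 and 7.48 with ICRF-193, against 8.60, 8.60 and 8.86 with DMSO, a fall of 1.14 ± 0.10 (adjusted p = 2.19e-08). Me1, the malic enzyme that supplies NADPH, read 7.97, 8.23 and 8.13 with ICRF-193, against 9.25, 9.12 and 9.28 with DMSO, a fall of 1.10 ± 0.25 (adjusted p = 0.00292). Acaca, the acetyl-CoA carboxylase that commits carbon to fatty acids, fell by 0.76 ± 0.09, and Fasn by 0.60 ± 0.09. The second probe sets gave -1.02 for Me1 and -0.64 for Acaca. Acly, which draws acetyl-CoA from citrate, read 10.80, 10.80 and 10.82 with ICRF-193, against 10.90, 10.98 and 10.98 with DMSO, and did not pass.

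All 6 desaturases and elongases fell, and they held the largest change of the 33 genes. Scd1, a stearoyl-CoA desaturase that makes monounsaturated fatty acids, read 6.58, 6.79 and 6.63 with ICRF-193, against 10.09, 10.12 and 10.38 with DMSO. The groups lay more than 3 log2 units apart, with a difference of -3.53 ± 0.23 (adjusted p = 1.35e-10), or 11.5-fold lower. Its relative Scd2 read 11.83, 11.92 and 11.86 with ICRF-193, against 12.58, 12.50 and 12.56 with DMSO, a fall of 0.68 ± 0.10 (adjusted p = 2.37e-05). Fads2 and Fads1, desaturases of polyunsaturated fatty acids, fell by 0.82 ± 0.09 and 0.52 ± 0.09. The elongase genes Elovl5 and Elovl6 fell by 0.53 ± 0.12 and 0.29 ± 0.09.

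**Figure D2:**
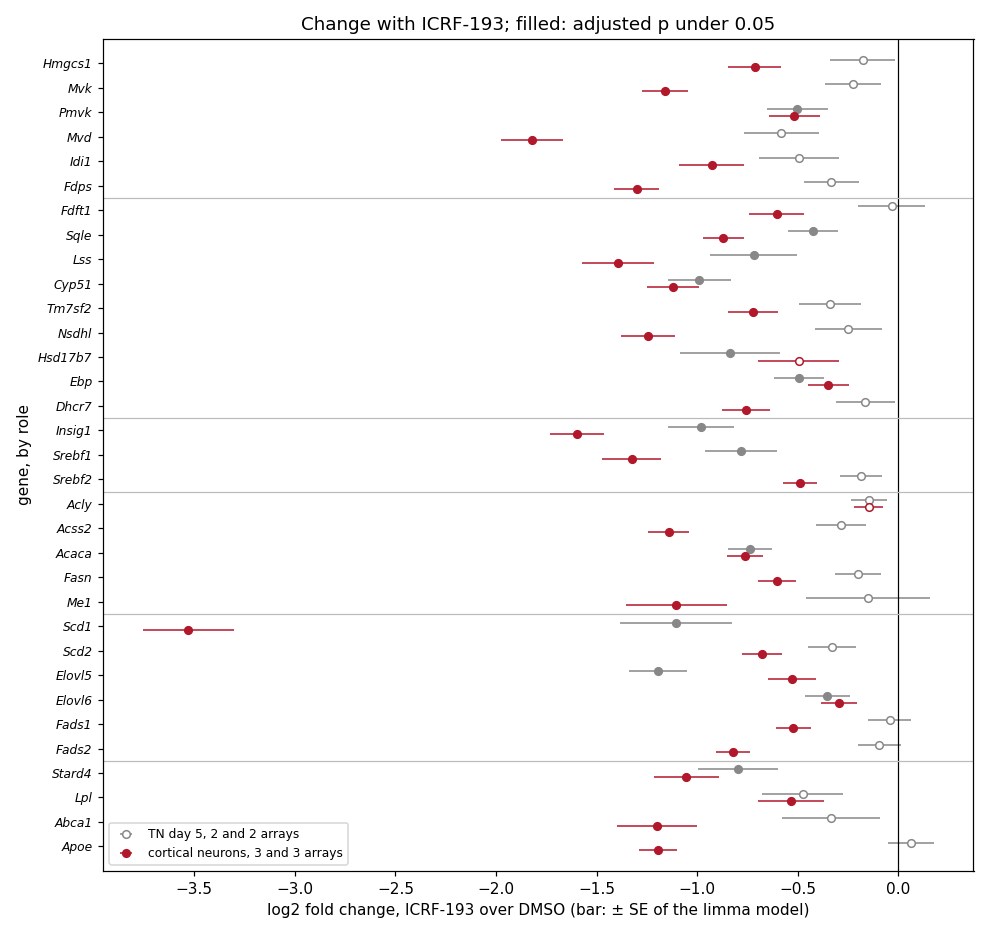
Log2 difference, ICRF-193 minus DMSO, of each measured gene in cortical neurons and at TN day 5, with bars of 1 SE, genes grouped by role and filled points where the adjusted p was under 0.05. All 33 genes lie below 0 in cortical neurons and 32 of 33 at TN day 5, and Scd1 at -3.53 is the lowest.

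The 4 genes of uptake and transport fell too. Apoe, the lipoprotein of brain cholesterol transport, read 10.36, 10.13 and 10.27 with ICRF-193, against 11.44, 11.41 and 11.50 with DMSO, a fall of 1.20 ± 0.09 (adjusted p = 3.16e-09). Abca1, which exports cholesterol to such particles, read 7.90 on all 3 ICRF-193 arrays, against 9.30, 9.10 and 8.90 with DMSO, a fall of 1.20 ± 0.20 (adjusted p = 0.000115). Stard4, a carrier of sterol between membranes, fell by 1.05 ± 0.16, and Lpl, the lipase that frees fatty acids from lipoproteins, by 0.53 ± 0.16 (adjusted p = 0.0222).

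Other genes of lipid metabolism were taken from a list of 30, of which 21 were measured. In cortical neurons 7 of the 21 fell and 1 rose, with a median difference of -0.05, and the background shares were 13.7% and 9.72% as above. The falls included Msmo1 (-0.93 ± 0.10), a sterol methyl oxidase, Slc25a1 (-0.66 ± 0.09), the citrate carrier of mitochondria, Acsl4 (-0.85 ± 0.12), which activates long fatty acids, and Fabp7 (-2.15 ± 0.43), a fatty acid binding protein of radial glia and astrocytes. Insig2 was the gene that rose (0.26 ± 0.08). Of 12 genes of fatty acid oxidation, 5 fell and 1 rose, among them Cpt1a (-0.95 ± 0.13), which admits fatty acids to mitochondria, and its neuronal relative Cpt1c (0.38 ± 0.08).

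Markers of other cell types moved beside these genes in cortical cultures. Of 7 astrocyte markers 6 fell and S100b did not pass; their summed level (log2 of the sum of linear intensities) was 9.58 to 9.71 with ICRF-193 and 11.70 to 11.77 with DMSO. The summed level of 7 oligodendrocyte lineage markers was 8.84 to 8.88 with ICRF-193 and 10.59 to 10.77 with DMSO, with 4 of 7 lower. All 5 markers of cycling cells fell, at 8.24 to 8.33 with ICRF-193 and 10.17 to 10.22 with DMSO. Of 5 neural progenitor markers Nes (-1.41 ± 0.26) and Pax6 (-0.88 ± 0.24) fell. All 7 microglia markers rose, at 10.43 to 10.54 with ICRF-193 and 9.61 to 9.70 with DMSO. Of 7 neuron markers 4 fell (Syt1, Map2, Tubb3 and Rbfox3) and 1 rose (Snap25), with Syt1 at -2.24 ± 0.12. The neuron list summed to 14.22 to 14.25 with ICRF-193 and 14.53 to 14.59 with DMSO, and glutamatergic markers to 12.38 to 12.46 with ICRF-193 and 11.77 to 11.89 with DMSO, with 2 of 4 higher. Array intensities have no true 0, so the absence of a cell type cannot be read from them, and the part of these cell types in the falls was not tested.

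**Figure D3:**
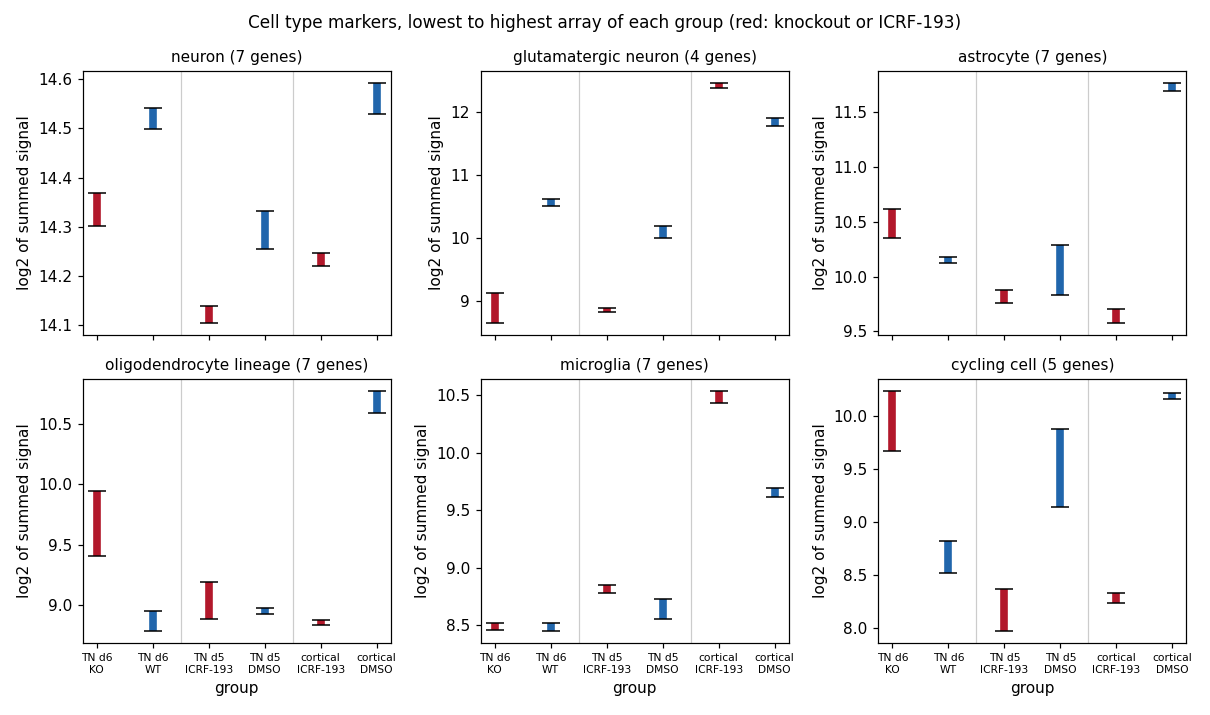
Summed level of 6 marker lists (log2 of summed linear intensities), as a bar spanning the lowest to the highest array of each group, for TN day 6 (knockout, wild type), TN day 5 and cortical neurons (ICRF-193, DMSO), on axes that do not start at 0. In cortical neurons the astrocyte, oligodendrocyte lineage and cycling cell ranges lie lower with ICRF-193 and the microglia range higher.

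At TN day 5 fewer of the genes fell, and by less for most of them: 29 of the 33 had their larger fall in cortical neurons. With ICRF-193, 13 of the 33 fell and none rose, where 6.37% of all genes fell and 2.51% rose. The median difference was -0.34 for the 33 genes and 0.02 for all genes, and 32 of 33 differences were below 0, or 29 of 33 after quantile normalization. At an unadjusted p under 0.05 20 fell and 0 rose, and the share of all genes at that cut-off is not given here. The array pairs were apart, ICRF-193 lower, for 15 of the 33 genes, as for 23.4% of all genes. The 13 genes were 1 of the mevalonate arm, 5 of the sterol arm, 2 regulators, 1 of fatty acid synthesis, 3 desaturases and elongases and 1 of uptake and transport.

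Elovl5, an elongase of polyunsaturated fatty acids, had the largest fall there. It read 8.51 and 8.84 with ICRF-193, against 9.60 and 10.14 with DMSO, a difference of -1.19 ± 0.14 (adjusted p = 6.57e-06). Scd1 read 6.22 and 6.44 with ICRF-193, against 6.77 and 8.10 with DMSO (-1.10 ± 0.28, adjusted p = 0.0152), with the DMSO arrays far from each other. Cyp51 read 8.92 and 9.27 with ICRF-193, against 9.82 and 10.35 with DMSO, a fall of 0.99 ± 0.16 (adjusted p = 0.000231). Insig1 read 8.61 and 9.17 with ICRF-193, against 9.56 and 10.17 with DMSO, a fall of 0.98 ± 0.16 (adjusted p = 0.000417). These sterol-responsive genes did not overlap between the groups. Srebf1 read 6.59 and 6.87 with ICRF-193, against 7.15 and 7.87 with DMSO (-0.78 ± 0.18, adjusted p = 0.00757), while Srebf2 differed by -0.18 ± 0.10 and did not pass. Acaca read 8.64 and 8.97 with ICRF-193, against 9.39 and 9.70 with DMSO (-0.74 ± 0.11, adjusted p = 9.93e-05). The other falls were those of Hsd17b7 (-0.84 ± 0.25), Stard4 (-0.80 ± 0.20), Lss (-0.72 ± 0.22), Pmvk (-0.50 ± 0.15), Ebp (-0.49 ± 0.12), Sqle (-0.43 ± 0.12) and Elovl6 (-0.35 ± 0.11). Among these Lss overlapped between the groups, with 7.88 and 8.56 with ICRF-193, against 8.45 and 9.42 with DMSO. Of 21 other lipid genes 3 fell, led by Fabp7 (-5.23 ± 0.52), where 6.37% of all genes fell.

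The arrays of this experiment spread widely. The median of the 33 genes, each centred on its mean over the groups, was -0.75 and -0.44 on ICRF-193 arrays 1 and 2. It was -0.47 and 0.06 on DMSO arrays 1 and 2, so the groups overlapped. Array 1 was the lower in both groups, and ICRF-193 lay below DMSO at each replicate number, though these numbers were not taken as pairs. Without DMSO array 1 the count became 20 genes, and without DMSO array 2 or ICRF-193 array 1 it became 4 genes. It was 1 gene, Elovl5, when the fit held only these 4 arrays. Cycling cell markers summed to 7.97 to 8.36 with ICRF-193 and 9.14 to 9.89 with DMSO, with 4 of 5 lower. Glutamatergic markers summed to 8.83 to 8.89 with ICRF-193 and 10.01 to 10.19 with DMSO, with 1 of 4 lower (Slc17a6). Mesenchymal markers summed to 10.97 to 11.13 with ICRF-193 and 11.77 to 12.21 with DMSO, with 1 of 7 lower. Neural progenitor markers summed to 10.50 to 11.11 with ICRF-193 and 11.16 to 11.78 with DMSO, with 2 of 5 lower. Of 7 neuron markers Syt1 and Map2 fell, and the list summed to 14.10 to 14.14 with ICRF-193 and 14.26 to 14.33 with DMSO. Astrocyte markers summed to 9.76 to 9.88 with ICRF-193 and 9.83 to 10.29 with DMSO, with 2 of 7 lower and 1 higher. The part of these cell types in the falls was not tested.

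The size of the drug effect differed between the neuron sources for 10 of the 33 genes, by the test of the difference between the 2 effects, where 4.37% of all genes passed. Of the 10, 9 fell further in cortical neurons (2.68% of all genes) and 1 less (1.69%). Scd1 fell by 2.43 ± 0.36 more in cortical neurons (adjusted p = 0.00015), and Mvd by 1.24 ± 0.24 more (adjusted p = 0.00258). The DMSO arrays of Scd1 read 6.77 and 8.10 at TN day 5, against 10.09, 10.12 and 10.38 in cortical neurons. Its ICRF-193 arrays read 6.22 and 6.44 at TN day 5, and 6.58, 6.79 and 6.63 in cortical neurons. The part of the starting level in this difference was not tested. Apoe differed by -1.26 ± 0.15 (adjusted p = 8.75e-06), being lower with the drug in cortical neurons and at 7.95 and 8.22 with ICRF-193, against 8.05 and 8.0 with DMSO, at TN day 5. Elovl5 was the gene that fell less in cortical neurons, by 0.67 ± 0.19 (adjusted p = 0.0436). The other 6 were Nsdhl, Fdps, Mvk, Acss2, Fads2 and Fads1. With DMSO, Apoe, Mvd, Elovl5 and these 6 except Fads1 were also lower at TN day 5 than in cortical neurons. The part of those starting levels was not tested either. Without DMSO array 2 of TN day 5 the count was 19 genes. These comparisons share no array: 12 genes fell in both, which is 92.3% of the 13 at TN day 5 and 38.7% of the 31 in cortical neurons. The 92.3% is near the 93.9% of the 33 genes that fell in cortical neurons, so it shows no further tie between the lists. Of all genes, 774 of the 1271 that fell at TN day 5 (60.9%) fell in cortical neurons too. Hsd17b7 fell at TN day 5 without passing in cortical neurons.

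**Figure D4:**
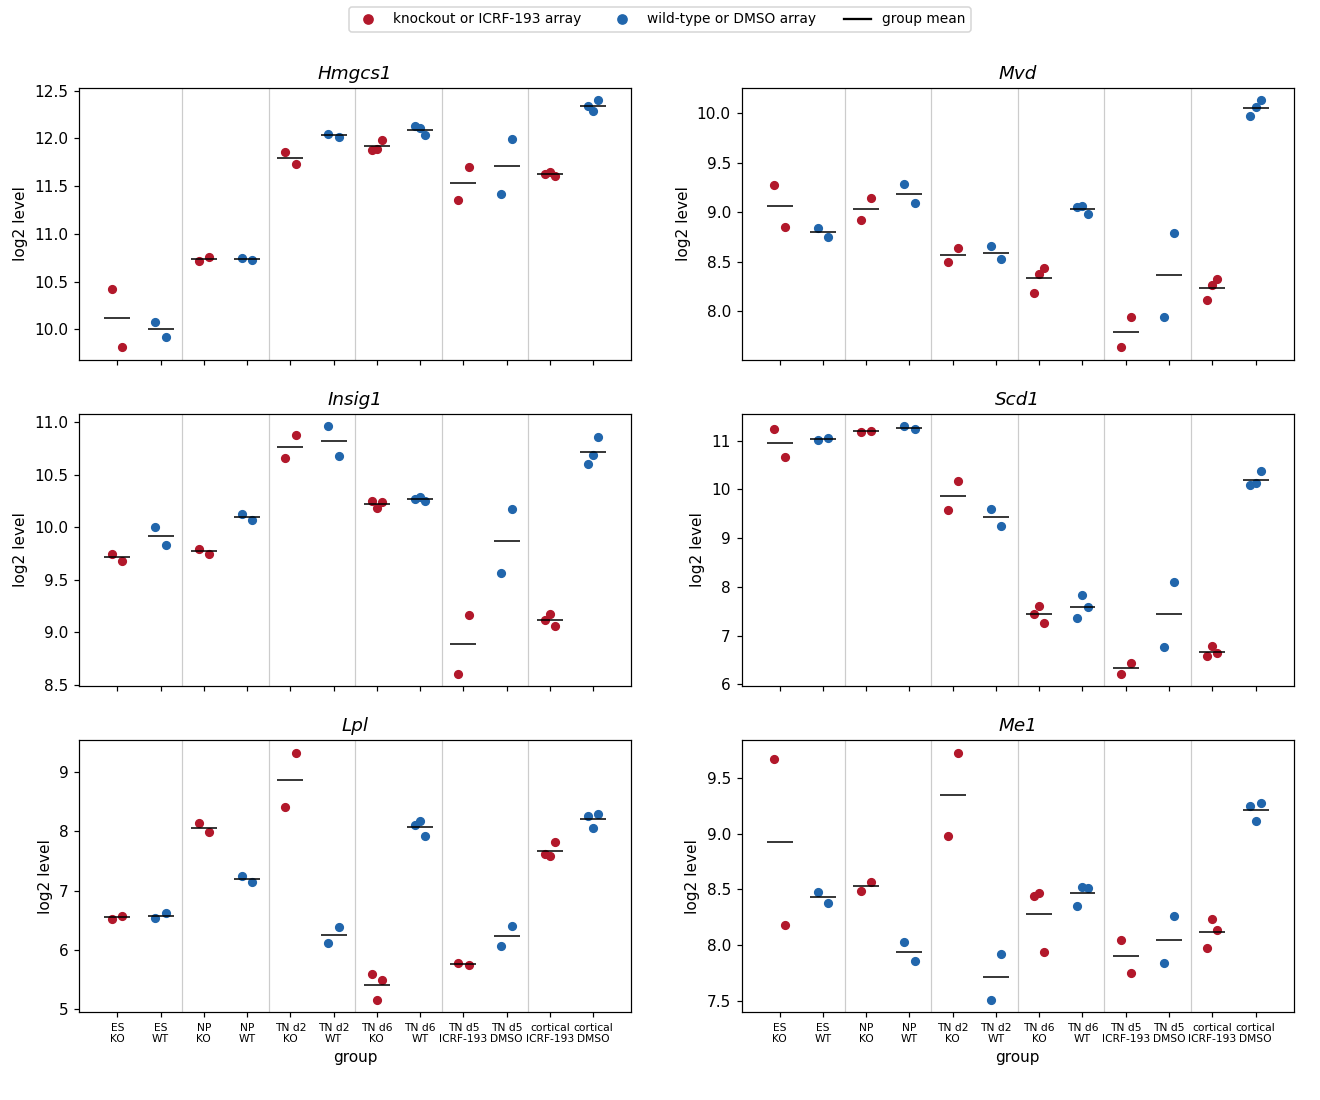
Log2 level of Hmgcs1, Mvd, Insig1, Scd1, Lpl and Me1 on every array (points) with group means (lines), knockout or ICRF-193 left of wild type or DMSO. Scd1 lies between 6.58 and 6.79 on the cortical ICRF-193 arrays, and Lpl between 5.16 and 5.60 in knockout neurons at TN day 6.

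Fewer of these genes passed with loss of Top2β than with ICRF-193, and Lpl had the largest changes among them. In ES cells none of the 33 changed by limma's adjusted p, where 0.351% of all genes did, and the differences ran from -0.34 to 0.50. At an unadjusted p under 0.05 1 rose and 1 fell there. The share of all genes at that cut-off is not given here, so nothing is read from these 2 genes. In NP cells 1 rose, where 0.381% of all genes rose and 0.246% fell. At TN day 2, 2 rose and 1 fell, where 5.49% of all genes rose and 5.97% fell, and without knockout array 2 the count was 1 gene. Of the other lipid genes at TN day 2, Elovl1 rose (0.83 ± 0.18), while Insig2, Tecr, Elovl2, Elovl4 and Lrp8 fell. Of the fatty acid oxidation genes Hadh (1.16 ± 0.21), Hadhb (0.62 ± 0.13) and Etfa (0.46 ± 0.11) rose there. At TN day 6, 2 of the 33 rose and 4 fell, where 5.38% of all genes rose and 4.8% fell. Centring every array on its own median made the TN day 6 counts 2 that rose and 8 that fell. The shares of all genes under that scaling are not given here. The median difference of the 33 genes was -0.07 at TN day 2 and -0.14 at TN day 6, against -0.04 and 0.00 for all genes.

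Lpl was higher in knockout cells at 2 stages and lower at the last. In NP cells it read 8.14 and 7.99 in knockout, against 7.24 and 7.14 in wild type (0.87 ± 0.20, adjusted p = 0.0473). This rise did not pass when any 1 of the 4 NP arrays was left out. At TN day 2 it read 8.40 and 9.33 in knockout, against 6.12 and 6.39 in wild type, a difference of 2.61 ± 0.20 (adjusted p = 7.05e-08). At TN day 6 it read 5.60, 5.16 and 5.49 in knockout, against 8.11, 8.17 and 7.91 in wild type, a difference of -2.65 ± 0.16 (adjusted p = 3.61e-10). The groups did not overlap at any of these stages. Beside the NP values, endoderm markers summed to 11.65 to 11.70 in knockout and 10.82 to 10.94 in wild type, with none of 5 past the test, and endothelial markers to 10.40 to 10.51 in knockout and 9.59 to 9.83 in wild type, with 1 of 6 higher. Astrocyte markers summed to 10.94 to 11.03 in knockout NP cells and 11.29 to 11.37 in wild type, with 1 of 7 lower. The knockout effect changed by 1.74 ± 0.28 between NP and TN day 2 (adjusted p = 0.00217) and by -5.25 ± 0.26 between TN day 2 and TN day 6 (adjusted p = 6.29e-11). In ES cells Lpl read 6.53 and 6.58 in knockout and 6.54 and 6.62 in wild type.

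Me1 was also high in knockout neurons at TN day 2, at 8.98 and 9.73, against 7.51 and 7.92 in wild type (1.64 ± 0.31, adjusted p = 0.00133). Without knockout array 2 its adjusted p was 0.0665. At TN day 6 the groups overlapped, with 8.44, 8.46 and 7.93 in knockout and 8.35, 8.52 and 8.52 in wild type, and the change of the knockout effect between the days was -1.82 ± 0.40 (adjusted p = 0.00815), which missed the threshold without wild type array 1 or knockout array 2 of TN day 2, with adjusted p up to 0.0958. Markers moved beside these values at TN day 2. Mesenchymal markers summed to 13.25 to 13.71 in knockout and 10.92 to 13.01 in wild type, with 3 of 7 higher. Endothelial markers summed to 9.53 to 10.61 in knockout and 8.27 to 8.62 in wild type, with 1 of 6 higher, and endoderm markers to 9.87 to 10.53 in knockout and 8.28 to 8.86 in wild type, with 1 of 5 higher. Astrocyte markers summed to 11.21 to 11.55 in knockout and 10.85 to 10.915 in wild type, with Slc1a3 and Gja1 higher and Slc1a2 lower. Cycling cell markers summed to 12.05 to 12.07 in knockout and 11.40 to 11.62 in wild type, with Bub1 and Cdk1 higher. Of 7 neuron markers 5 fell, as did Pax6, Hes5 and Slc17a6 of other lists. The part of such cells in the values of Lpl and Me1 was not tested.

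At TN day 6 the synthesis genes that changed were lower in knockout neurons. Mvd read 8.19, 8.37 and 8.43 in knockout, against 9.05, 9.06 and 8.98 in wild type (-0.70 ± 0.15, adjusted p = 0.00335). Acaca read 9.46, 9.52 and 9.43 in knockout, against 9.83, 9.90 and 9.86 in wild type (-0.39 ± 0.09, adjusted p = 0.00496). Neither gene overlapped between the genotypes. Acly, the citrate lyase that ICRF-193 did not change past the test, fell by 0.27 ± 0.07 (adjusted p = 0.0138). It had fallen at TN day 2 as well, by 0.31 ± 0.09 (adjusted p = 0.0234). Leaving out single arrays raised these adjusted p-values to at most 0.0779 at TN day 6 and 0.26 at TN day 2. The TN day 6 arrays of Acly read 11.32, 11.24 and 11.32 in knockout, against 11.57, 11.60 and 11.54 in wild type. All 9 sterol genes lay below 0 at TN day 6, under both other scalings too, with a median of -0.22, and none of them passed. With median centring 3 of them did (Sqle, Cyp51 and Nsdhl). At TN day 2 all 9 also lay below 0, or 8 of 9 after quantile normalization, and none passed. Shares of all genes below 0, or passing with median centring, are not given here.

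Of the 4 genes of uptake and transport, Abca1 and Apoe rose and Lpl fell, while Stard4 did not pass. Abca1 read 7.45, 7.44 and 6.94 in knockout, against 6.24, 6.45 and 6.07 in wild type (1.03 ± 0.20, adjusted p = 0.00112). Apoe read 8.56, 8.49 and 8.42 in knockout, against 8.08, 8.08 and 7.85 in wild type (0.48 ± 0.09, adjusted p = 0.00112). Both were fully apart from wild type. Of the 21 other lipid genes 2 rose and 2 fell, where 5.38% of all genes rose and 4.8% fell. Among them Abcg1, a partner of Abca1 in cholesterol export, rose (0.52 ± 0.15), and Msmo1 fell (-0.71 ± 0.10). Beside these values, the neural progenitor markers summed to 11.95 to 12.29 in knockout and 11.06 to 11.19 in wild type, with 3 of 5 higher. Cycling cell markers summed to 9.67 to 10.24 in knockout and 8.52 to 8.82 in wild type, with 5 of 5 higher. Glutamatergic markers summed to 8.66 to 9.12 in knockout and 10.51 to 10.62 in wild type, with 1 of 4 lower, and astrocyte markers to 10.36 to 10.61 in knockout and 10.12 to 10.18 in wild type, with 2 of 7 higher. Oligodendrocyte lineage markers summed to 9.41 to 9.95 in knockout and 8.79 to 8.96 in wild type, with Pdgfra and Mbp higher. Endothelial markers summed to 8.59 to 9.13 in knockout and 8.28 to 8.35 in wild type, with Flt1 and Tek higher. The neuron list summed to 14.30 to 14.37 in knockout and 14.50 to 14.54 in wild type, with Syt1 lower. The part of these cell types in the differences was not tested.

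**Figure D5:**
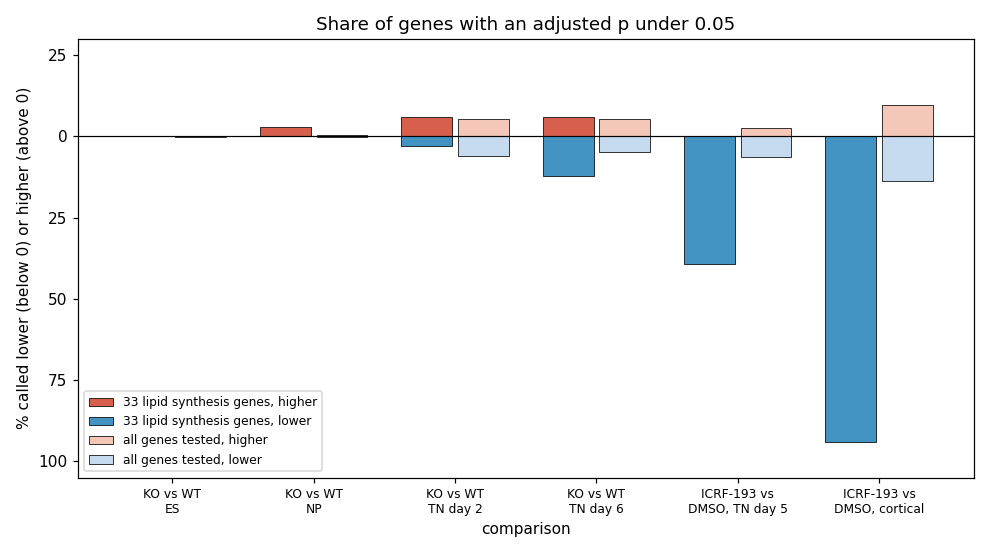
Percent of the 33 genes and of all 19938 genes that passed the test, by direction, in each of the 6 comparisons of knockout with wild type and of ICRF-193 with DMSO. The share of the 33 that fell with ICRF-193 in cortical neurons stands above 13.7% of all genes, while in ES cells none of the 33 passed.

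The drug and the knockout were also set against each other in neurons from ES cells, at TN day 5 and TN day 6. The difference between the 2 effects passed for 6 of the 33 genes, where 7.07% of all genes passed. The drug effect was the lower for Elovl5 (-1.16 ± 0.19, adjusted p = 0.000377), Abca1 (-1.36 ± 0.31, adjusted p = 0.00952), Insig1 (-0.93 ± 0.21, adjusted p = 0.00851), Srebf1 (-0.89 ± 0.23, adjusted p = 0.0207) and Cyp51 (-0.68 ± 0.20, adjusted p = 0.0455). For Insig1 the drug effect was -0.98 and the knockout effect -0.05. For Abca1 the drug effect was -0.33 ± 0.24 and did not pass, while the gene rose in knockout neurons. For Lpl the drug effect was the higher, by 2.17 ± 0.26 (adjusted p = 1.46e-05). That drug effect was -0.48 ± 0.20 and did not pass, while Lpl fell in knockout neurons. With DMSO at TN day 5 Lpl read 6.07 and 6.41, against 8.11, 8.17 and 7.91 in wild type at TN day 6. The part of this starting level was not tested. The days, the dosing and the experiment differ between these effects and cannot be told apart from the kind of perturbation. Without DMSO array 2 or ICRF-193 array 1 the count was 2 genes, and without DMSO array 1 it was 13.

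Wild type cells show how the genes are set before any perturbation. From ES to NP, 9 of the 33 rose and 3 fell, where 21.7% of all genes rose and 24.5% fell. The largest rise was that of Acss2, at 8.59 and 8.45 in NP, against 7.40 and 7.44 in ES (1.10 ± 0.12). Apoe fell most, to 10.26 and 10.17 in NP, against 11.77 and 11.96 in ES (-1.65 ± 0.11), and Ebp fell by 1.16 ± 0.12. These groups did not overlap.

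From NP to TN day 2, 10 of the 33 rose and 9 fell, where 21.6% of all genes rose and 26.6% fell, so the share that fell was near that of all genes. Cholesterol genes led the rise: Cyp51 read 10.49 and 10.47 at TN day 2, against 9.06 and 8.88 in NP (1.51 ± 0.16, adjusted p = 4.15e-08). Hmgcs1 read 12.05 and 12.02 at TN day 2, against 10.75 and 10.73 in NP (1.30 ± 0.16, adjusted p = 6.55e-07). Hsd17b7 (1.25 ± 0.25), Pmvk (1.04 ± 0.15), Tm7sf2 (1.0 ± 0.15), Idi1 (0.98 ± 0.20), Sqle (0.93 ± 0.12), Insig1 (0.72 ± 0.16) and Fdft1 (0.69 ± 0.17) rose with them, as did Acly (0.98 ± 0.09). The 9 genes that fell were of several roles. Of the fatty acid and transport genes, Acss2, Acaca, Me1, Scd2, Elovl6, Fads2, Stard4 and Abca1 did not pass. Scd1 read 9.61 and 9.25 at TN day 2, against 11.29 and 11.25 in NP (-1.84 ± 0.28, adjusted p = 8.26e-06). Apoe fell by 2.09 ± 0.11, Lpl by 0.93 ± 0.20, Fads1 by 0.63 ± 0.11, Elovl5 by 0.59 ± 0.14 and Fasn by 0.48 ± 0.12. Srebf1 (-0.67 ± 0.18), Mvd (-0.60 ± 0.19) and Mvk (-0.35 ± 0.14) fell beside them.

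Between TN day 2 and TN day 6, 2 of the 33 rose and 10 fell, where 16.7% of all genes rose and 11.9% fell. Centring every array on its own median gave 4 that rose and 8 that fell, without shares of all genes under that scaling. Scd1 fell again, to 7.36, 7.83 and 7.59 at TN day 6, against 9.61 and 9.25 at TN day 2 (-1.83 ± 0.25, adjusted p = 9.63e-06). Abca1 fell by 1.13 ± 0.22 and Nsdhl by 0.81 ± 0.15, while Lpl rose by 1.81 ± 0.18 and Pmvk by 0.50 ± 0.14. Without wild type array 1 of TN day 2 the count was 5 genes. The stage comparisons share arrays with each other and with the knockout comparisons, so the values are given side by side only.

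Cortical neurons with DMSO carried more of these transcripts than TN day 5 neurons with DMSO. Of the 33 genes 28 were higher and none lower, where 24.4% of all genes were higher and 20.4% lower. After quantile normalization 26 were higher and 2 lower. At an unadjusted p under 0.05 without it 29 were higher and 0 lower. The shares of all genes for these counts are not given here. Apoe read 11.44, 11.41 and 11.50 in cortical neurons, against 8.05 and 8.0 at TN day 5 (3.43 ± 0.10, adjusted p = 3.08e-16). Scd1 was higher by 2.76 ± 0.25, Abca1 by 2.10 ± 0.22, Lpl by 1.96 ± 0.18 and Mvd by 1.69 ± 0.17. The count was 19 genes without DMSO array 1 of TN day 5. These DMSO arrays are also the controls of both drug comparisons. Source of the cells and experiment cannot be told apart here, and astrocyte markers summed to 11.70 to 11.77 in cortical cultures and 9.83 to 10.29 at TN day 5, whose part was not tested.

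Across the 12 group means, the 33 genes varied together only in part. Their pairwise Pearson correlations had a median of 0.42 and ran from -0.78 to 0.98, as a description over groups that share cell stages. Fdps (0.95), Acaca (0.94), Lss (0.92) and Nsdhl (0.90) followed the median of the 33 most closely. Pmvk (0.16), Acly (0.20) and Hmgcs1 (0.25) followed it least. For Hmgcs1 the order of groups began with cortical neurons with DMSO (12.34), then wild type TN day 6 (12.09), and ended with wild type ES cells (arrays at 10.08 and 9.92). For Scd1 it began with wild type NP cells (11.27), followed by knockout NP cells (11.19), from which it did not differ past the test, and ended with ICRF-193 at TN day 5 (6.33).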

How the data were processed

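RNA was extracted and hybridised to Affymetrix whole-transcript arrays per the labels' protocols. The authors deposited 1 table of 35556 probe sets on 28 arrays, in log2 intensity as read from the range of the values (1.96 to 13.99). The submitters' processing notes name oligo 1.14.0, and no source used here gives the normalization steps. Of the probe sets 21789 had 1 gene symbol, 1621 had several and 12146 had none, and 999 genes with more than 1 probe set were represented by the one with the highest mean. No scanner files or batch labels were used. The precision is limited by 2 or 3 arrays per group.

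One limma 3.58.1 fit (R 4.3.3) of 12 group means over 19938 genes gave each contrast, with 16 residual and 4.87 prior degrees of freedom, Benjamini-Hochberg adjustment over all genes and a threshold of 0.05. Called genes were named in order of size, and a gene that missed the threshold only where it passed in another comparison. The genes and all lists were chosen with earlier results of these data known. The fit was tested on simulated data. Alternatives were quantile normalization, median centring, array weights, replicate blocks, a filter on dim genes, the mean of probe sets, a trended fit, the compared arrays alone and leaving out each array. Figures were drawn with matplotlib 3.10.9. Arrays with the same replicate number did not deviate together in every pair (correlations of deviations from -0.23 in NP cells to 0.38 at TN day 5), so the numbers were not taken as pairs.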

Additional observations from a re-analysis of the deposited data

Results flagged for a closer look

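These results are listed because an effect differed between stages or between neuron sources by the test of the difference itself (limma, adjusted over all genes). The knockout effect on Lpl was 1.74 ± 0.28 higher at TN day 2 than in NP cells (adjusted p = 0.00217), and at TN day 6 minus TN day 2 it was -5.25 ± 0.26 (adjusted p = 6.29e-11). For Me1 the knockout effect differed by -1.82 ± 0.40 between TN day 6 and TN day 2 (adjusted p = 0.00815). The ICRF-193 effect in cortical neurons minus that at TN day 5 was -2.43 ± 0.36 for Scd1 (adjusted p = 0.00015), -1.26 ± 0.15 for Apoe (adjusted p = 8.75e-06), -1.24 ± 0.24 for Mvd (adjusted p = 0.00258) and -0.99 ± 0.21 for Nsdhl (adjusted p = 0.00619). It was -0.97 ± 0.18 for Fdps (adjusted p = 0.00144), -0.93 ± 0.18 for Mvk (adjusted p = 0.0023), -0.86 ± 0.16 for Acss2 (adjusted p = 0.00171) and -0.73 ± 0.14 for Fads2 (adjusted p = 0.00188). With DMSO, Scd1, Apoe, Mvd, Nsdhl, Fdps, Mvk, Acss2, Fads2 and Elovl5 lay lower at TN day 5 than in cortical neurons. The part of those starting levels was not tested. Fads1 at -0.48 ± 0.14 (adjusted p = 0.0497) and Elovl5 at 0.67 ± 0.19 (adjusted p = 0.0436) lay nearest the threshold. Fads1 missed it under 11 of 19 alternatives, with adjusted p up to 0.231, and Elovl5 under 9 of 19, with adjusted p up to 0.29.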

How the results depend on the processing

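Over all alternatives no called gene changed direction, 179 of its re-tests missed the threshold and 1920 kept it. The cause of each change below was not tested, beyond the smaller number of arrays where arrays were left out. For ICRF-193 in cortical neurons the count of 31 genes ran from 29 to 30 with 1 array left out and from 29 to 33 otherwise, and 28 genes passed under every alternative. For ICRF-193 at TN day 5 the count of 13 became 8 with quantile normalization, 7 with array weights, 1 with only the arrays compared and 4 to 20 with 1 array left out. For the knockout the count at TN day 6 was 10 with median centring and with array weights, against 6, and 5 to 6 with 1 array left out. It was 1 to 4 at TN day 2 (without knockout array 2: 1), 0 to 0 in NP cells and 0 to 3 in ES cells, where leaving out knockout array 2 gave 3. Without both knockout ES arrays, an alternative chosen after seeing the data, NP cells gave 2 genes and the change of the knockout effect between NP and TN day 2 gave 3, which was 0 with only the arrays compared and 1 to 1 with 1 array left out. The change of the knockout effect between TN day 2 and TN day 6 gave 1 to 2 genes (1 without wild type array 1 or knockout array 2 of TN day 2). Wild type TN day 6 against TN day 2 gave 5 to 11. The drug effect in cortical neurons minus TN day 5 gave 8 to 19 (19 without DMSO array 2 of TN day 5), and the drug effect at TN day 5 minus the knockout effect at TN day 6 gave 3 with only the arrays compared and 2 to 13 with 1 array left out. Where 1 array remained, it was assumed to vary like the other groups. With the replicate block the counts were 32 in cortical neurons, 15 at TN day 5, and 7, 3, 1 and 0 for the knockout at TN day 6, TN day 2, NP and ES. A crossed replicate block in NP cells, also chosen after seeing the data, gave 1. Median centring moved the median difference of all genes from -0.08 to 0.05 for wild type TN day 2 against NP, and from 0.02 to 0.14 for the drug effect minus the knockout effect, and by less than 0.1 elsewhere.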
